A study of Homo sapiens with 6 samples.

Results

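Antisense RNAs are transcribed from the DNA strand opposite to a named gene and take that gene's symbol followed by AS and a number. Cells of BT-549, a long-established line of triple-negative breast cancer (TNBC), were analysed by RNA-seq 48 h after transfection with a control siRNA (CsiRNA, 3 libraries) or with an siRNA against the nuclear long non-coding RNA NEAT1 (NEAT1siRNA, 3 libraries). Both groups came from the same line, whose sample titles carry the prefix tet, and the labels describe triplicate cultures, so p-values measure the spread between cultures of 1 line. The question asked here was which antisense RNAs differed between NEAT1siRNA and CsiRNA cells, and what the gene named before the hyphen (the sense partner) did beside each. Of 25545 genes in the deposited table of TPM (read numbers scaled by transcript length and by library), 1119 carry such a symbol and 418 of these are listed at 0 in every library. The antisense RNAs described are the 123 that were chosen by their TPM, which averaged 1 or more over the 6 libraries.

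Antisense genes lie in several arrangements. A divergent antisense RNA starts close to its partner and runs away from it, a head-to-head one starts inside the partner and runs out over its start, a tail-to-tail one overlaps its end, and others sit inside the partner or span it. Many are short-lived nuclear RNAs that the RNA exosome degrades, whereas others are spliced, polyadenylated and abundant, and some are known to act on the chromatin or the transcript of the gene across from them. NEAT1 itself is the RNA scaffold of paraspeckles, nuclear bodies built with RNA-binding proteins.

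NEAT1 was checked first. It was present at 13.4, 7.68 and 10.8 TPM in the CsiRNA libraries and at 4.36, 2.96 and 2.73 TPM in the NEAT1siRNA libraries, without overlap, and fell by 1.41 on the log2 scale (SE 0.14; limma adjusted p = 1.21e-07). The labelled cell type was checked on markers. Of the TNBC receptors, ESR1 was listed at 0 in every library, PGR had at most 2 recovered reads in a library and ERBB2 was at 5.76 to 6.36 TPM. The mesenchymal gene VIM was at 859 TPM or more, SPARC at 340 TPM or more and FN1 at 56.3 TPM or more, whereas the epithelial genes CDH1, EPCAM, KRT8 and KRT19, and PTPRC, PECAM1 and ALB of other cell types, stayed under 0.3 TPM and KRT18 was at 1.04 to 2.07 TPM. Reads recovered from the deposited tables ran from 15788544 to 20342573 per library. The 4 short RNAs RN7SK, RN7SL1, RN7SL2 and RPPH1 took 64.4% to 68.1% of all TPM, so other genes have correspondingly lower TPM than in a library without them. Across 10424 genes, the deviation of a library from its group mean followed transcript GC content with a Spearman rho between -0.712 (NEAT1siRNA replicate 2) and 0.661 (NEAT1siRNA replicate 1). Counts with the trend on GC and length removed are given below, but its part in the change of each named RNA is not given.

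The start regions of 5 antisense RNAs are printed because the results below turn on these pairs: HHIP-AS1 and TGFB2-AS1, which fell together with their partners, TMPO-AS1 and USP46-AS1, which rose beside a partner that did not pass the test, and LLPH-AS1, which starts next to the first base of its partner. Each sequence runs 5′ to 3′ on the strand of the antisense RNA, from 250 bases before its RefSeq start (GRCh38.p14) to 50 bases from it, and the 50 bases in capitals are the first that are transcribed. HHIP-AS1 is shown for chr4:144645970-144646269 (- strand), TGFB2-AS1 for chr1:218345629-218345928 (- strand), TMPO-AS1 for chr12:98516177-98516476 (- strand), USP46-AS1 for chr4:52659156-52659455 (+ strand) and LLPH-AS1 for chr12:66130501-66130800 (+ strand).
HHIP-AS1: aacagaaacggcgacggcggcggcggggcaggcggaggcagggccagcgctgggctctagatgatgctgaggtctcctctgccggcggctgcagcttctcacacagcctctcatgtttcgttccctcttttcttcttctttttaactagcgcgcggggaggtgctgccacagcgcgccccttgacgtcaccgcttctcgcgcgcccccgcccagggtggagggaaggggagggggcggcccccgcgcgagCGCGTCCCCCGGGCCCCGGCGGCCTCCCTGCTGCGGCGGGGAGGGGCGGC
TGFB2-AS1: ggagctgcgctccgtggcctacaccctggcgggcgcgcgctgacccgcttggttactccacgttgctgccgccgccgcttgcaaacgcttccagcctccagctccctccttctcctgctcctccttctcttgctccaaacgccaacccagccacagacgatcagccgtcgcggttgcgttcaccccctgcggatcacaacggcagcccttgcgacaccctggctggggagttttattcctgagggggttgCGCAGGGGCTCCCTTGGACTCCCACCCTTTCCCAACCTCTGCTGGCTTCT
TMPO-AS1: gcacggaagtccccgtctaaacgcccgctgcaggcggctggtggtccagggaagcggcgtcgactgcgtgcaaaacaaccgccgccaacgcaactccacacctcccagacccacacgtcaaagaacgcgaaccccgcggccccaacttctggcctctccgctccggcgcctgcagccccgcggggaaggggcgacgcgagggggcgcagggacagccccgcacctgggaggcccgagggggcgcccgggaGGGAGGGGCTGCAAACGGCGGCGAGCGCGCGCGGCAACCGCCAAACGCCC
USP46-AS1: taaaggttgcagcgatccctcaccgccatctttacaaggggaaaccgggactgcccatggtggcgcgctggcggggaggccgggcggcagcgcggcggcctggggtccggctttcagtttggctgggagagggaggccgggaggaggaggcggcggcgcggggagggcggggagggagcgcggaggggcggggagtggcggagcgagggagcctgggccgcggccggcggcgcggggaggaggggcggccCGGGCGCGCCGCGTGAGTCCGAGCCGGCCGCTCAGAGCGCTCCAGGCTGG
LLPH-AS1: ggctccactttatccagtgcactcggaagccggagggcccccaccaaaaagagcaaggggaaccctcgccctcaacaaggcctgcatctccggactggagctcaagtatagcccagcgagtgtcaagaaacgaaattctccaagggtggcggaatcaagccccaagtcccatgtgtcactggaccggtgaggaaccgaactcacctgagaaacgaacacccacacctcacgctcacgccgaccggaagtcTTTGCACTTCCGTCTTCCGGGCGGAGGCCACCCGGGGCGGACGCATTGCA

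In these RefSeq models the start of LLPH lay 1 base, that of USP46 105 bases and that of HHIP 137 bases upstream of the antisense start, within the printed stretch and on the other strand. The start of TGFB2 lay 342 bases and that of TMPO 653 bases downstream, inside the antisense transcript and beyond the printed stretch. A RefSeq promoter of this length was found for 99 of the 123 antisense RNAs. Their median GC content was 66.7%, against 58.3% over all 27305 promoters of the same length. The TATA box letters TATAAA were in 3.03% of them on either strand, against 12.0% of all promoters. The E-box CACGTG was in 11.1% against 7.43%, and the letters CCAAT in 30.3% against 35.7%. None of these 3 motifs was in the 5 stretches printed.

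In NEAT1siRNA cells, 16 of the 123 antisense RNAs fell and 7 rose past an adjusted p of 0.05 (limma on log2(TPM + 1), adjusted over 10721 genes). In bulk RNA, fewer cells with an RNA and less of it per cell cannot be told apart. The largest falls were those of CDC37L1-AS1, EZR-AS1 and PTOV1-AS2, and the largest rises those of HOXC-AS2, USP46-AS1 and ZBED5-AS1. The 23 called make 18.7% of the antisense RNAs, beside a background of 14.0% of all genes tested. By direction, 13.0% were lower, beside a background of 8.98%, and 5.69% were higher, beside a background of 4.99%. The median log2 fold change was -0.08 over the antisense RNAs and -0.04 over all genes tested, and 73 antisense RNAs had a negative and 50 a positive value. In 38 of the 123, the 3 NEAT1siRNA values all lay on one side of the 3 CsiRNA values (30.9%), beside a background of 30.3%, and this held for 20 of the 23 called. The exceptions were FOXP4-AS1, VPS9D1-AS1 and SPART-AS1, whose groups overlapped. The split of directions depended on scaling, since centring each library on its median gave 9 lower and 10 higher, and quantile normalization gave 9 lower and 9 higher. The share called then lay below that of all genes, with 15.4% against 19.7% after centring, 14.6% against 20.4% after quantile normalization and 16.3% against 23% with limma voom on recovered reads. It was also below with no filter on TPM (1.63% against 2.73%) and at a mean TPM of 5 or more (10.7% against 14.3%). The share lay above that of all genes with the GC and length trend removed (35.0% against 22.9%) and with replicate number as a block (17.9% against 15.3%). At an adjusted p under 0.01 it was 11.4% against 6.71%, and it was above with each library left out in turn. Without CsiRNA replicate 1, 7 were lower and 6 higher (10.6%), beside 383 lower and 376 higher of all genes (7.08%). Without NEAT1siRNA replicate 2, 21 were lower and 12 higher (26.8%), beside 1590 lower and 493 higher of all genes (19.4%).

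Because the rule uses the mean over both groups, a low antisense RNA could pass it through its higher group. In 16 of the 123 a group mean was under 1 TPM, and these include 8 of the 16 that fell and 1 of the 7 that rose, so their count is no evidence on antisense RNAs as a class. Just inside the rule were OSER1-AS1 at a mean of 1.03 TPM and LLPH-AS1 at 1.03 TPM. Just outside it were KMT2E-AS1 at 0.995 TPM, EP300-AS1 at 0.969 TPM and PSMD6-AS2 at 0.966 TPM.

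**Figure D1:**
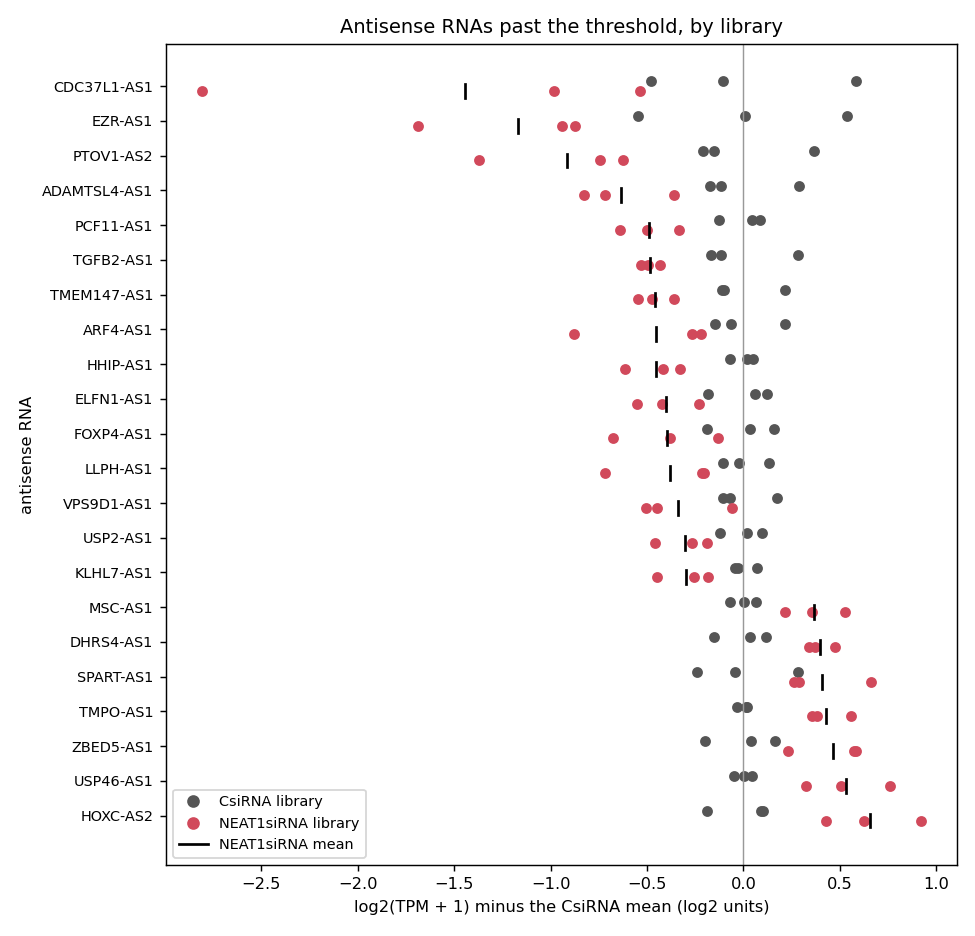
Each row is 1 of 22 of the antisense RNAs past the threshold, and each point is 1 library, placed by its log2(TPM + 1) minus the mean of the 3 CsiRNA libraries (grey, CsiRNA; red, NEAT1siRNA; black bar, mean of the NEAT1siRNA libraries). The groups were apart in 19 rows and overlapped for FOXP4-AS1, VPS9D1-AS1 and SPART-AS1.

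Few reads stood behind many of these values. The antisense RNAs had a median of 61.7 recovered reads per library, against 985 for their tested partners and 696 for all genes tested. They ranged from a mean of 2 reads for EZR-AS1 to 5422 for LRRC75A-AS1. Of the 23 called, 19 had fewer than 100 reads per library on average and 5 fewer than 10, against 76 and 10 of all 123. Of the 58 antisense RNAs under 2 TPM, 14 were called, and of the 28 at 5 TPM or more, 3 were called, namely VPS9D1-AS1, TMPO-AS1 and MSC-AS1. The share of all genes called at these levels is not given here. Low antisense RNAs could also pass the rule through their higher group, so no difference between levels is read from these counts. TPM do not carry the difference in precision between few and many reads. The same groups were therefore also compared with limma voom on the recovered reads, which weights each value by its read number. There, 14 of the 23 were called again and 9 were not, VPS9D1-AS1 among them. Called on reads alone were 6 others (FGD5-AS1, ZNF667-AS1, CTBP1-AS2 and MBNL1-AS1 higher, NUTM2B-AS1 and EMC3-AS1 lower).

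**Figure D2:**
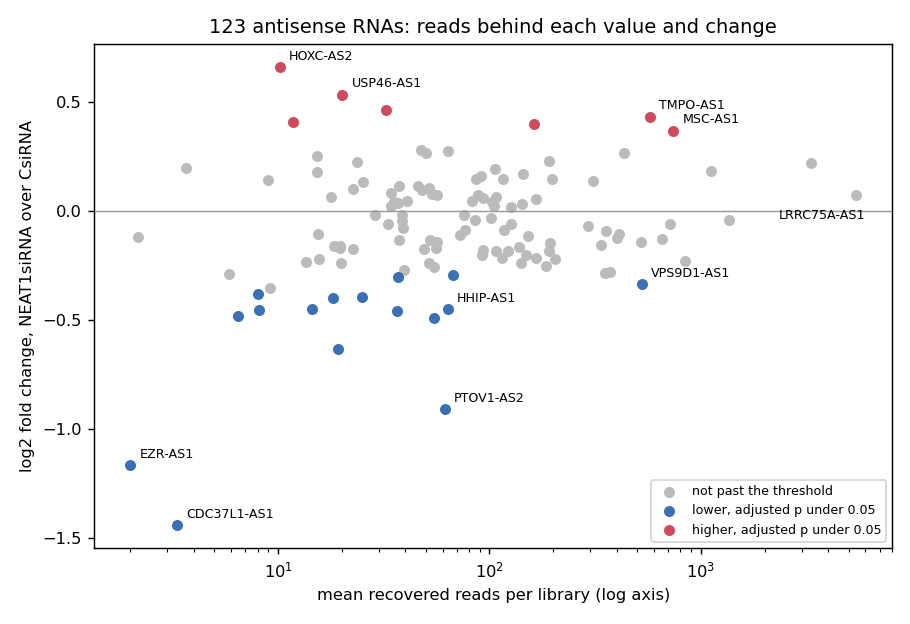
Each point is 1 of the 123 antisense RNAs, with its mean recovered reads per library on a log axis and its log2 fold change of NEAT1siRNA over CsiRNA (blue, lower; red, higher; grey, not past the threshold). The 2 largest changes, EZR-AS1 and CDC37L1-AS1, rest on means of 2 and 3.33 reads, whereas TMPO-AS1 and MSC-AS1 rest on over 500.

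Among the antisense RNAs that fell, PTOV1-AS2 had the largest change with more than a few reads behind it. It lies inside PTOV1, which encodes a protein overexpressed in prostate tumours, at chr19:49856970-49859289 on the minus strand. PTOV1-AS2 was present at 3.65, 3.82 and 5.91 TPM in CsiRNA cells (64, 68 and 128 reads) and at 2.49, 2.21 and 1.08 TPM in NEAT1siRNA cells (47, 44 and 19 reads). CsiRNA replicate 3 was the highest and NEAT1siRNA replicate 3 the lowest, and the groups did not overlap. The mean fell from 4.46 ± 1.26 to 1.92 ± 0.748 TPM (SD, n = 3 per group), by 0.91 on the log2 scale (SE 0.15; limma adjusted p = 0.000152). PTOV1 itself was at 14.9 ± 0.328 and 17.2 ± 1.22 TPM, a log2 difference of 0.20 (SE 0.09) that did not pass the test (limma adjusted p = 0.159). Of the exonic bases of PTOV1-AS2, 42.2% lie across from PTOV1 exons.

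CDC37L1-AS1 and EZR-AS1 had larger fold changes from fewer reads. CDC37L1-AS1 is read divergently from CDC37L1, a gene for an HSP90 co-chaperone, with starts 22 bases apart. It had 7, 3 and 5 reads in CsiRNA cells and 3, 2 and 0 in NEAT1siRNA cells, which correspond to 9.50, 4.02, 5.51, 3.82, 2.54 and 0 TPM. The log2 fold change of CDC37L1-AS1 was -1.44 (SE 0.32; limma adjusted p = 0.00296), and on recovered reads the adjusted p was 0.0588. CDC37L1 was at 8.87 ± 0.661 and 8.95 ± 0.312 TPM, with a log2 fold change of 0.01. EZR-AS1 overlaps the start of EZR, which encodes the membrane-cytoskeleton linker ezrin, and had 10 reads over the CsiRNA libraries and 2 over the NEAT1siRNA libraries. Its values were 2.24, 3.68 and 1.21 TPM against 0, 0.679 and 0.76 TPM, a log2 fold change of -1.17 (SE 0.19; limma adjusted p = 0.000123). In TPM both pairs of groups were apart, but in reads the CDC37L1-AS1 groups met at 3 and the EZR-AS1 groups were 1 read apart.

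HHIP-AS1 and TGFB2-AS1 were the antisense RNAs that fell together with their partners. HHIP encodes a membrane protein that binds and sequesters hedgehog ligands. HHIP-AS1 was present at 4.06, 3.95 and 3.65 TPM in CsiRNA cells and at 2.19, 2.66 and 2.89 TPM in NEAT1siRNA cells. The groups were apart, and HHIP-AS1 fell by 0.45 on the log2 scale (SE 0.10; limma adjusted p = 0.00293). HHIP was present at 6.58, 5.58 and 4.69 TPM with CsiRNA and at 2.94, 3.21 and 2.96 TPM with NEAT1siRNA. It fell from 5.62 ± 0.946 to 3.04 ± 0.149 TPM, by 0.70 on the log2 scale (SE 0.10; limma adjusted p = 4.69e-05), and was called under each of the 16 other fits in which it was tested. The GENCODE model of HHIP-AS1 overlaps HHIP head to head, with starts 15201 bases apart. In that model, 34.0% of the exonic bases of HHIP-AS1 lie across from exons of the other strand. The RefSeq model printed above places the pair differently, with HHIP starting 137 bases upstream of HHIP-AS1 on the other strand.

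TGFB2 encodes a ligand of the transforming growth factor beta receptors. TGFB2-AS1 was present at 1.89, 1.19 and 1.11 TPM in CsiRNA cells (11, 7 and 8 reads) and at 0.639, 0.760 and 0.685 TPM in NEAT1siRNA cells (4, 5 and 4 reads). The groups were apart, with a log2 fold change of -0.49 (SE 0.11; limma adjusted p = 0.00428), but on recovered reads the adjusted p of TGFB2-AS1 was 0.0965. TGFB2-AS1 met the rule of a mean of 1 TPM only through its CsiRNA values, as its NEAT1siRNA values were all under 1 TPM. The rule thus favoured a fall, and the call of TGFB2-AS1 was lost without CsiRNA replicate 1. TGFB2 fell from 6.31 ± 0.472 to 4.64 ± 0.698 TPM, by 0.38 on the log2 scale (SE 0.10; limma adjusted p = 0.0130). In TGFB2-AS1, 38.0% of exonic bases lie across from exons of the other strand. The libraries were made with a stranded kit, but whether strand was used when reads were counted is not given in the sources used here. For both pairs, a fall of the antisense RNA and reads of the partner assigned to it therefore cannot be told apart. Reads of the other strand may likewise be in the values of every called antisense RNA with exons across from exons of that strand. These were 16 of the 23, against 91 of all 123.

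PCF11-AS1 lies wholly inside PCF11, the gene of a cleavage and termination factor of messenger RNA, at chr11:83185521-83187036, and 100% of its exonic bases lie across from PCF11 exons. It was present at 1.96, 1.56 and 1.88 TPM in CsiRNA cells and at 0.977, 1.22 and 0.796 TPM in NEAT1siRNA cells, without overlap, and fell by 0.49 on the log2 scale (SE 0.10; limma adjusted p = 0.00223). PCF11 was at 7.75 ± 1.01 and 7.56 ± 0.852 TPM, with overlapping groups and a log2 fold change of -0.03 (SE 0.10). ADAMTSL4-AS1 and TMEM147-AS1 likewise fell, by 0.64 and 0.46 on the log2 scale, and TMEM147, the gene of an endoplasmic reticulum membrane protein, had a log2 fold change of -0.20 that did not pass the test (limma adjusted p = 0.160). ADAMTSL4, the gene of a secreted matrix protein, was at a mean of 0.496 TPM and was not tested.

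Further antisense RNAs that fell had log2 fold changes from -0.46 (ARF4-AS1) to -0.30 (KLHL7-AS1). They were ARF4-AS1, ELFN1-AS1, FOXP4-AS1, LLPH-AS1, VPS9D1-AS1, USP2-AS1 and KLHL7-AS1, with adjusted p-values between 0.0140 and 0.0496. VPS9D1-AS1, the most abundant RNA called, was present at 15.9, 16.3 and 19.5 TPM in CsiRNA cells and at 16.5, 12.3 and 11.8 TPM in NEAT1siRNA cells. NEAT1siRNA replicate 1 lay within the CsiRNA range, and VPS9D1 itself had a mean of 0.313 TPM. LLPH-AS1, whose start region is printed above, had 9, 11 and 10 reads in CsiRNA cells and 3, 8 and 7 in NEAT1siRNA cells. LLPH, a gene of ribosome biogenesis that starts next to it, was at 48.7 ± 1.06 and 46.9 ± 3.13 TPM and was not called. ARF4, the gene of a small GTPase of the Golgi, was at 328 ± 22.3 and 390 ± 50.1 TPM (log2 fold change 0.24; limma adjusted p = 0.0772), while ARF4-AS1 had 12, 9 and 10 reads with CsiRNA and 8, 3 and 7 with NEAT1siRNA.

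TMPO-AS1 rose and kept its call under every other fit. Its partner TMPO encodes lamina-associated polypeptides of the inner nuclear membrane. TMPO-AS1 was present at 7.26, 7.31 and 7.01 TPM in CsiRNA cells (450, 459 and 536 reads) and at 9.67, 11 and 9.48 TPM in NEAT1siRNA cells (645, 778 and 592 reads). The CsiRNA values were close together, the NEAT1siRNA values all lay above them, and the mean rose from 7.19 ± 0.161 to 10.1 ± 0.851 TPM. The log2 fold change was 0.43 (SE 0.09; limma adjusted p = 0.00271), and the adjusted p reached at most 0.0402 under 17 other fits. TMPO was at 72.7, 72.3 and 66.2 TPM with CsiRNA and at 71.9, 97.3 and 75.7 TPM with NEAT1siRNA. These groups overlapped, and the log2 fold change of TMPO was 0.20 (SE 0.10; limma adjusted p = 0.202). Of the exonic bases of TMPO-AS1, 19.2% lie across from TMPO exons, so the limit on strand given above applies here too.

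MSC-AS1 spans MSC, the gene of the transcription factor musculin. It was present at 6.19, 5.91 and 5.56 TPM in CsiRNA cells and at 6.99, 8.93 and 7.82 TPM in NEAT1siRNA cells, without overlap, and rose by 0.37 on the log2 scale (SE 0.10; limma adjusted p = 0.0130). MSC was at 6.69 ± 0.536 and 6.35 ± 0.632 TPM, with a log2 fold change of -0.07. DHRS4-AS1 spans DHRS4, which encodes a retinol-metabolizing reductase with near-identical neighbouring copies, so reads there may be split between copies. It was at 1.51, 1.86 and 2.02 TPM with CsiRNA and at 2.88, 2.53 and 2.60 TPM with NEAT1siRNA, a log2 fold change of 0.40 (SE 0.10; limma adjusted p = 0.00859), while DHRS4 had a log2 fold change of 0.12 and was not called.

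USP46-AS1 and ZBED5-AS1 rose beside partners that had nearly level values. USP46 encodes a deubiquitinase, and USP46-AS1 is read divergently from it, with starts 105 bases apart. USP46-AS1 was present at 1.02, 1.08 and 0.954 TPM in CsiRNA cells (13, 14 and 15 reads) and at 1.53, 1.87 and 2.42 TPM in NEAT1siRNA cells (21, 27 and 31 reads). The groups were apart, and the log2 fold change was 0.53 (SE 0.11; limma adjusted p = 0.00141). USP46 was at 3.33 ± 0.158 and 3.47 ± 0.370 TPM, a log2 fold change of 0.04 (SE 0.10). ZBED5-AS1 was at 1.29, 0.942 and 1.5 TPM with CsiRNA and at 2.35, 2.33 and 1.62 TPM with NEAT1siRNA, a log2 fold change of 0.46 (SE 0.11; limma adjusted p = 0.00696), and the zinc finger gene ZBED5 had a log2 fold change of 0.03. SPART-AS1, inside the gene of the endosomal protein spartin, had a log2 fold change of 0.41 (SE 0.12; limma adjusted p = 0.0305) with overlapping groups, from 0.473, 1.12 and 0.690 TPM to 1.76, 1.09 and 1.13 TPM.

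**Figure D3:**
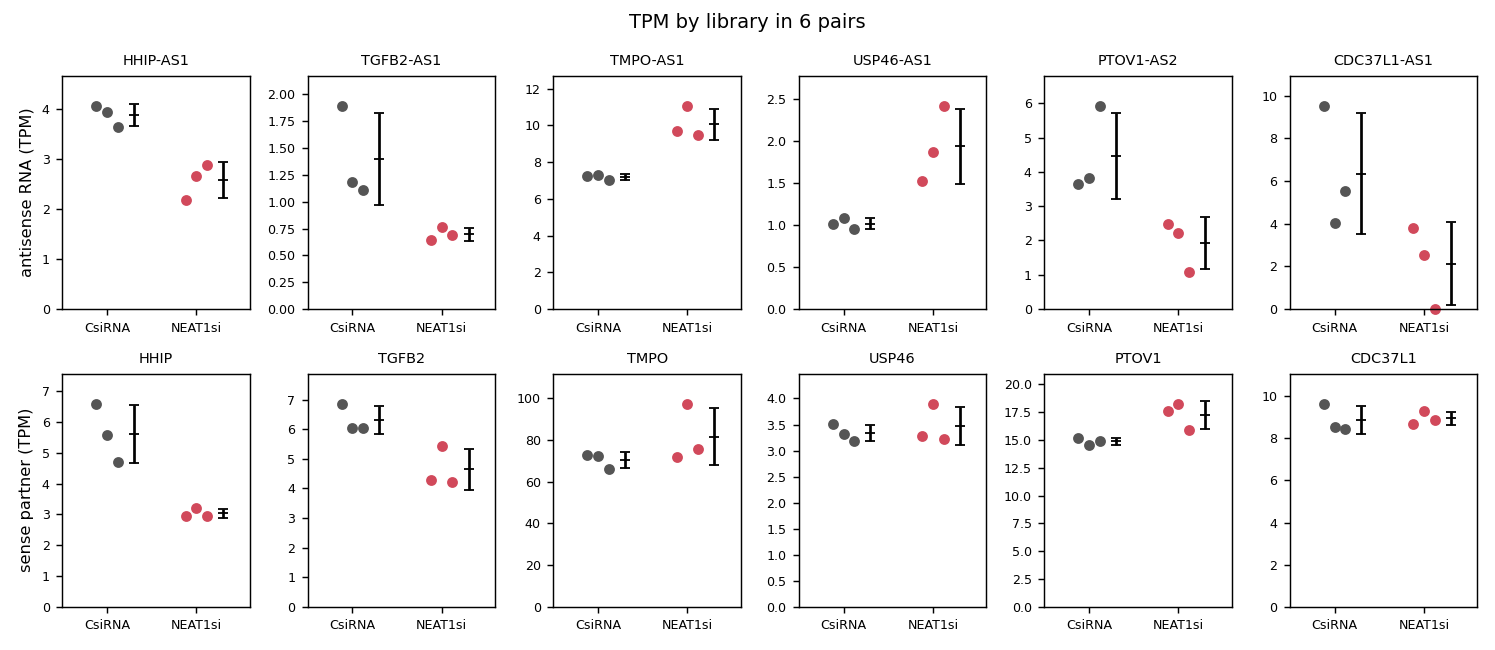
TPM of 6 antisense RNAs (upper row) and their sense partners (lower row) in each of the 3 CsiRNA (grey) and 3 NEAT1siRNA (red) libraries, with the mean and SD as a black bar, on axes that start at 0. HHIP-AS1 and TGFB2-AS1 are low together with HHIP and TGFB2, whereas TMPO-AS1, USP46-AS1, PTOV1-AS2 and CDC37L1-AS1 differ between groups beside partners that did not pass the test.

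HOXC-AS2 had the largest rise. It lies in the HOXC cluster of homeobox genes, which set positional identity, at chr12:53993810-53996785 on the minus strand, and its symbol names no single partner. HOXC-AS2 was present at 1.5, 1.48 and 1.04 TPM in CsiRNA cells (7, 7 and 6 reads) and at 2.58, 3.41 and 2.13 TPM in NEAT1siRNA cells (13, 18 and 10 reads). The groups were apart, and the log2 fold change was 0.66 (SE 0.12; limma adjusted p = 0.000346). In the same cluster, HOXC-AS1 was at 1.43 ± 0.891 and 1.55 ± 0.231 TPM and HOXC-AS3 at 9.20 ± 1.69 and 9.68 ± 1.92 TPM, and neither was called. Of the 7 HOXC protein genes tested, 2 rose, HOXC10 by 0.47 (limma adjusted p = 0.000975) and HOXC6 by 0.41 (limma adjusted p = 0.00636), and 0 fell. HOXC6 and HOXC9 lie across from HOXC-AS2 in GENCODE, and HOXC9 had a log2 fold change of 0.24 (limma adjusted p = 0.0830).

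The most abundant antisense RNAs were mostly not called. LRRC75A-AS1, now named SNHG29 after the small nucleolar RNAs in its introns, was at 103 ± 4.88 TPM in CsiRNA cells and 108 ± 0.227 TPM in NEAT1siRNA cells (log2 fold change 0.07, SE 0.08). FGD5-AS1 was at 32.1 ± 1.94 and 37.7 ± 5.38 TPM (log2 fold change 0.22; limma adjusted p = 0.153) and ZNF667-AS1 at 30 ± 2.37 and 34.3 ± 4.19 TPM (log2 fold change 0.18; limma adjusted p = 0.235). OIP5-AS1, also known as Cyrano, was at 19.6 ± 1.30 and 18.7 ± 1.37 TPM (log2 fold change -0.06). PRRT3-AS1, RAB30-AS1, NUTM2A-AS1, PITPNA-AS1 and THAP9-AS1 had means from 14.0 to 18.1 TPM and log2 fold changes from -0.19 to 0.07. VPS9D1-AS1 was the 1 RNA called among the 10 most abundant. On recovered reads it was not called (limma voom adjusted p = 0.086), whereas FGD5-AS1 and ZNF667-AS1 were (limma voom adjusted p = 0.014 and 0.029).

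A list of 27 antisense RNAs with a known background was also read, of which 16 were among the 123. HOXC-AS2 and TMPO-AS1 were the 2 of these 16 that were called, beside a background of 14.0% of all genes tested. The others not yet described were MAPKAPK5-AS1, PSMA3-AS1, NNT-AS1, ZEB1-AS1, LOXL1-AS1, CDKN2B-AS1, VIM-AS1 and HOXB-AS1, with log2 fold changes from -0.27 (HOXB-AS1, limma adjusted p = 0.107) to 0.17 (ZEB1-AS1, limma adjusted p = 0.289). CDKN2B-AS1, known as ANRIL, was at 2.03 ± 0.283 and 2.33 ± 0.129 TPM and was not called. ZEB1-AS1, across from the gene of a driver of epithelial-mesenchymal transition, was at 1.68 ± 0.142 and 2.01 ± 0.242 TPM.

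Of the 117 sense partners in the table, 93 were tested and 11 were called, 9 lower and 2 higher (11.8%, beside the background of 14.0%), and 6 were called without CsiRNA replicate 1. Apart from HHIP and TGFB2, none of these 11 had a called antisense RNA, and of the 19 called antisense RNAs with a tested partner, those of HHIP and TGFB2 were the 2 with a called one. These 2 of 19 stand beside the 11 of all 93 tested partners, and no link within pairs is read from them. CDKN2B, which encodes an inhibitor of cyclin-dependent kinases, rose from 16.7 ± 0.976 to 26.4 ± 3.34 TPM, by 0.62 on the log2 scale (SE 0.10; limma adjusted p = 9.59e-05). HAS2, a hyaluronan synthase gene, rose by 0.48 (SE 0.11; limma adjusted p = 0.00307) from 5.30 ± 0.331 to 7.84 ± 1.39 TPM. HAS2-AS1 was at 0.896 ± 0.122 and 1.27 ± 0.187 TPM, without overlap, and its log2 fold change of 0.26 did not pass the test (limma adjusted p = 0.0872).

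The partners that fell serve different tasks. URB1, a gene of ribosome assembly, fell by 0.56 (SE 0.10), FLVCR1, the gene of a heme and choline transporter, by 0.48 (SE 0.10), and COX10, needed for the heme of cytochrome oxidase, by 0.44 (SE 0.09). SLC16A1, the gene of a lactate transporter, fell from 63.1 ± 6.30 to 46.9 ± 4.55 TPM, by 0.42. PTPRD, PXN and MAPKAPK5, the genes of a receptor phosphatase, the focal adhesion protein paxillin and a stress-activated kinase, fell by 0.33, 0.32 and 0.29. Their antisense RNAs had log2 fold changes from -0.24 (SLC16A1-AS1) to 0.22 (PXN-AS1). FLVCR1-AS1 and URB1-AS1, which are read divergently from their partners with starts 136 and 83 bases apart, were at 0.15 and 0.08 on the log2 scale while FLVCR1 and URB1 fell, but the difference between the RNAs of a pair was not tested.

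By level, 42 antisense RNAs had a higher mean TPM than their partner and 76 a lower one, and 25 were more than 10-fold below it. The median was 2.12 TPM for the antisense RNAs and 6.81 TPM for their partners. The rule asked for a mean of 1 TPM of the antisense RNAs only, and 24 of the 117 partners lay under it. Comparisons of level within pairs are therefore tilted toward the antisense RNA. By position in GENCODE, 44 overlapped the partner head to head (8 lower, 2 higher; median log2 fold change -0.12), 24 were divergent without overlap (3 lower, 1 higher; -0.06), 19 lay inside the partner (4 lower, 1 higher; -0.15), 19 overlapped it tail to tail (1 lower, 0 higher; -0.06) and 11 spanned it (0 lower, 2 higher; -0.02). The partner was above the antisense RNA in most divergent and head-to-head pairs, where 6 of 24 and 9 of 44 antisense RNAs were the higher ones, whereas in tail-to-tail pairs 11 of 19 were. Over all genes tested, 8.98% were lower and 4.99% higher, with a median log2 fold change of -0.04. The counts by position include RNAs that passed the rule through their higher group, and no test was made between positions. Over the 93 pairs tested, the log2 fold changes of antisense RNA and partner had a Pearson r of 0.15 and a Spearman rho of 0.18. The r was 0.37 over the 41 head-to-head pairs and -0.19 over the 23 divergent pairs. These are descriptions across pairs that share the same 6 libraries, their scaling and, where exons overlap, possibly reads.

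**Figure D4:**
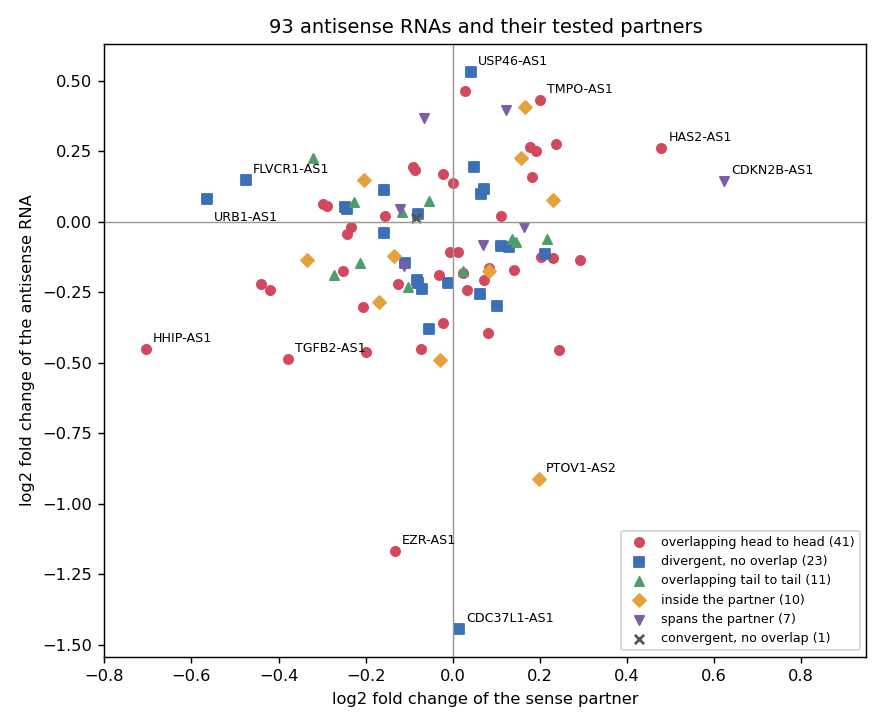
Each point is 1 of 93 antisense RNAs, with the log2 fold change (NEAT1siRNA over CsiRNA) of its sense partner on the x axis and its own on the y axis, and colour and shape give the position against the partner. HHIP-AS1 and TGFB2-AS1 lie low on both axes, CDKN2B-AS1 and HAS2-AS1 lie to the right through their partners, and CDC37L1-AS1, EZR-AS1 and PTOV1-AS2 lie low beside partners between -0.13 and 0.20.

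Other classes of long non-coding RNA are given for comparison, without a test between classes, and the background over all genes tested is 8.98% lower and 4.99% higher with a median log2 fold change of -0.04. Of 63 intergenic LINC RNAs tested, 7 were lower and 5 higher (19.0% called), with a median of -0.02. Of 16 snoRNA host genes (SNHG symbols), 9 were lower and 0 higher (56.2% called), with a median of -0.32. Of 11 microRNA host genes, 4 were lower and 1 higher (45.5% called), with a median of -0.24. Symbols ending in DT (2 tested, 1 higher) and in IT and a digit (4 tested, 2 lower) were few. LRRC75A-AS1, itself a snoRNA host under its present name, was not called. Of 24 genes tested of the nuclear RNA exosome and its adaptors, which degrade many antisense RNAs, EXOSC2, EXOSC10 and EXOSC4 fell by 0.36, 0.31 and 0.27 (limma adjusted p = 0.00972, 0.0249 and 0.0499), 0 rose, and the median was -0.11. This is 12.5% called, below the 14.0% of all genes. As all of these calls were falls, 12.5% were lower, beside a background of 8.98%.

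Several calls rested on single libraries, and so did calls over all genes. Over all genes, 1498 were called with all libraries, 759 without CsiRNA replicate 1 and 838 without NEAT1siRNA replicate 3. Without 1 of the other libraries, 1289 to 2083 were called. Without CsiRNA replicate 1, 11 of the 23 calls were lost (ARF4-AS1, CDC37L1-AS1, DHRS4-AS1, ELFN1-AS1, FOXP4-AS1, KLHL7-AS1, LLPH-AS1, SPART-AS1, TGFB2-AS1, USP2-AS1 and VPS9D1-AS1), with limma adjusted p-values from 0.0506 to 0.221. KLHL7-AS1, USP2-AS1 and LLPH-AS1 were lost without CsiRNA replicate 2 (0.0523 to 0.0873), and KLHL7-AS1, USP2-AS1 and VPS9D1-AS1 without CsiRNA replicate 3 (0.08 to 0.167). KLHL7-AS1, LLPH-AS1 and SPART-AS1 were lost without NEAT1siRNA replicate 1 (0.116 to 0.241), ARF4-AS1 and USP2-AS1 without replicate 2 (0.124 to 0.152), and FOXP4-AS1, KLHL7-AS1, USP2-AS1 and VPS9D1-AS1 without replicate 3 (0.101 to 0.238). The other 12 calls were made with each library left out in turn, among them those of PTOV1-AS2, EZR-AS1, ADAMTSL4-AS1, PCF11-AS1, TMEM147-AS1, HHIP-AS1, HOXC-AS2, USP46-AS1, ZBED5-AS1, TMPO-AS1 and MSC-AS1.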

How the data were processed

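Stranded mRNA libraries were made from 3 CsiRNA and 3 NEAT1siRNA cultures. Per the labels, reads were aligned with STAR to GRCh38 and the groups were compared with DESeq2. The authors deposited TPM per gene and library (the tool and the use of strand in counting are not given in the sources used here) and a table of their comparison. From that table only the mean normalized count, a signal that the authors averaged over all libraries, was used; its fold changes, errors and p-values were not. Columns of other samples not used numbered 0.

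log2(TPM + 1) of the 10721 genes averaging 1 TPM or more was compared by limma 3.58.1 (lmFit, eBayes with trend, two-sided) in R 4.3.3, with Benjamini-Hochberg adjustment over all of them and a threshold of 0.05. Fold changes are on this scale and understate changes of low genes. TPM were used in place of counts, which a count model needs. Reads were recovered by joining the TPM with the mean normalized count, and 99.8% of values of genes under 5 and 98.5% of those between 5 and 50 came within 0.05 of a whole number, but 18.4% above 500, where reads are rough values. The fit was first tested on simulated data with known changes. Tables and plots were made with Python 3.11.15 (matplotlib 3.10.9, numpy 2.4.6, scipy 1.17.1, pandas 2.3.3).

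Positions came from GENCODE v44 on GRCh38, matched for 100 antisense RNAs by current and for 23 by older symbol, of which 19 now end in DT, and 120 are typed as lncRNA. Promoters came from RefSeq (GRCh38.p14). Members and lists were chosen with earlier results of these data known. Named are all antisense RNAs past the threshold, the 10 most abundant, a list of known ones, those at the edge of the rule, and their partners, except 1 called antisense RNA that is not reported here by name; called partners with their antisense RNAs, the HOXC genes, and RNAs called on reads alone were chosen after their values were seen.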

Additional observations from a re-analysis of the deposited data

How the results depend on the processing

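Called antisense RNAs numbered 2 of 123 with no filter on TPM (1 lower, 1 higher, with 4 partners called), where the spread was estimated over 18531 genes. At a mean TPM of at least 5 they were 3 of the 28 left (1 lower, 2 higher). At an adjusted p under 0.01, 14 were called, 9 of them lower, and 7 partners. Quantile normalization gave 9 lower and 21 partners called. Centring on the median gave 9 lower, a median log2 fold change of -0.025 and 24 partners. Voom on recovered reads gave 10 lower and 30 partners. Removing each library's trend on transcript GC and length (4 spline degrees of freedom) gave 43 (28 lower, 15 higher) and 19 partners, and 46 (30 lower, 16 higher) and 21 partners together with the replicate block. The causes were not tested. The replicate block alone gave 22 (15 lower, 7 higher) and 14 partners, with all genes called rising from 1498 to 1640. Same-numbered libraries deviated from their group means with correlations of -0.0304, 0.251 and -0.107, so the numbers were not taken to pair the cultures. With 1 library left out, 13 to 33 antisense RNAs were called (7 to 21 lower, 6 to 12 higher), 6 to 16 partners, and medians ran from -0.09 to -0.03. Over all genes, 505 (no filter on TPM), 719 (adjusted p under 0.01) and 759 to 2083 (1 library left out) were called, and 2390 or more with the GC trend removed. In 4 of these fits (the GC trend removed, with or without the block, without CsiRNA replicate 2 and without NEAT1siRNA replicate 2) limma set 1 spread for all genes of a given level, so single genes' own spread did not count there; in the fit reported this prior had 21.2 degrees of freedom. A pseudocount of 0.1, eBayes without trend and a mean of at least 10 reads kept every count within 1.5 times. Of 389 repeats of the 23 called fold changes, 89 were no longer past the threshold and 0 changed sign. Read numbers limit the antisense RNAs under 10 reads most.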

Other observations

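Of the 27 antisense RNAs listed for their known background, 11 lay under a mean of 1 TPM in these cells and were not tested. MCM3AP-AS1 was at 0.925 TPM, HIF1A-AS1 at 0.833 TPM and HOXB-AS3 at 0.738 TPM. SBF2-AS1, TTN-AS1 and SPRY4-AS1 were at 0.339, 0.330 and 0.413 TPM, and UCHL1-AS1, HIF1A-AS2, HOXA-AS2 and AFAP1-AS1 at 0.0684 TPM or less. HOXA-AS3 was listed at 0 in every library. KMT2E-AS1, just under the level of the rule, was at 1.19 ± 0.319 TPM in CsiRNA cells and 0.801 ± 0.0853 TPM in NEAT1siRNA cells, without overlap (n = 3 per group), and was not tested.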
